A study of Homo sapiens with 6 samples.

Results

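The regions described here are gains of DNA methylation that started from a nearly unmethylated state: listed regions whose mean level in the control library was under 0.10 and whose level in the matching DNMT3A-overexpressing library was higher. Levels are the share of methylated cytosines at the CpG sites of a region, from 0 to 1. There were 993 such regions among 4344 in the 3 deposited lists, and among 3546 listed gains. Pairs 1, 2 and 3 held 342, 347 and 304 of them. The regions were selected on both measured levels of a pair, so the levels and differences of a region in the pair that chose it are given as a description. The call counts over all 6 libraries given further on rest on those levels too and support nothing.

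The libraries were made by reduced representation bisulfite sequencing, which reads methylation in fragments cut at CCGG by MspI and so favours CpG-rich DNA. HepG2 is an established human liver cancer line. Its 3 control libraries, of wild-type genotype, came from cells carrying a control lentivirus by the name LV_NC in the list headers. The 3 other libraries came from cells given DNMT3A by lentivirus, and all 6 shared the same serum-containing DMEM culture. Each list set the overexpressing library of one number against the control library of that number, so 3 pairs were compared. The labels do not say whether libraries came from separate cultures, so the p-values cover library-to-library spread alone, and that spread may be technical. They give neither the promoter of the vector nor the DNMT3A level reached. Each library had 33512387 to 39245256 reads, of which 25764323 to 29924507 were mapped. The mapping rate was 76.25% to 76.88% in overexpressing and 75.96% to 76.20% in control libraries without overlap (exact two-sided permutation test, p = 0.1, the smallest possible with 3 against 3). The MspI cutting efficiency was 99.61% to 99.64% and 99.65% to 99.66%, also without overlap (exact p = 0.1). The part of either in the results was not tested. Cell identity could not be checked, since no expression was measured and none of 6 hepatocyte markers and 6 markers of other cells had a listed region.

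DNMT3A is a de novo DNA methyltransferase: it adds methyl groups to cytosines of CpG sites that carry none on either strand, while DNMT1 copies existing methylation after replication. CpG islands, the CpG-rich stretches at many gene starts, are kept unmethylated in most normal cells. A number of them become methylated in tumours, including liver cancers.

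The sequences below show the DNA of 3 gains that lay at annotated start sites and recurred in all 3 pairs with small differences, followed by 2 with larger differences. Each run is the part of the region that lay inside the 250 bases before the start site of the named gene, 5′ to 3′ on that gene's strand, from RefSeq GRCh38.p14, and capitals mark CG dinucleotides. The runs are from PAQR9 (minus strand, chr3:142963675-142963780), C2CD4D (minus strand, chr1:151839838-151840070), LOC124903942 at RAI1 (minus strand, chr17:17783585-17783794), DLGAP1-AS2 inside DLGAP1 (plus strand, chr18:3603487-3603509) and LOC107987303 at ITGB2 (minus strand, chr21:44910498-44910524).
PAQR9: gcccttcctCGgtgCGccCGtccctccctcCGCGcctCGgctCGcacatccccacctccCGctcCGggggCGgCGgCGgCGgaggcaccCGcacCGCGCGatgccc
C2CD4D: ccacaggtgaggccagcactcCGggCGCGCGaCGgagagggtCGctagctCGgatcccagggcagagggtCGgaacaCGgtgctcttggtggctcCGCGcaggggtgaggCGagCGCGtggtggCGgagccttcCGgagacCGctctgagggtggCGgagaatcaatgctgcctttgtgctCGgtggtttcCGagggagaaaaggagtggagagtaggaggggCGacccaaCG
LOC124903942: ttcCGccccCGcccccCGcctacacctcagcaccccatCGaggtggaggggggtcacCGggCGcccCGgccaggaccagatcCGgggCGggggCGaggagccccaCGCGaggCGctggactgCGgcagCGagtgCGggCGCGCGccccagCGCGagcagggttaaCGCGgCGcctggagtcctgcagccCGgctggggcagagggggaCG
DLGAP1-AS2: attgcCGacagatcaggcccaCG
LOC107987303: ttgcacctgggggtggtggCGaatgCG

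The run at PAQR9, a gene of the progestin and adipoQ receptor family, held 17 CG in 106 bases. The whole PAQR9 region had levels of 0.0660, 0.0688 and 0.04996 in controls 1, 2 and 3, and of 0.130, 0.145 and 0.117 in the overexpressing libraries. The run at C2CD4D held 22 CG in 233 bases, with region levels of 0.0408, 0.0463 and 0.0233 in the controls and 0.0948, 0.0974 and 0.151 with DNMT3A. That of LOC124903942 held 26 CG in 210 bases. Its region lay inside RAI1, the dosage-sensitive gene of Smith-Magenis syndrome, and went from 0.0411, 0.0303 and 0.0247 to 0.104, 0.108 and 0.0957. All 3 regions stayed at or under 0.151 in every library, with no overlap between the groups. The 23-base run of DLGAP1-AS2, within the gene of a synaptic scaffold protein, held 2 CG. Its region was listed in pairs 1 and 3, with control levels of 0.0486 and 0.0248 and overexpressing levels of 0.348 and 0.422. The 27-base run of LOC107987303 also held 2 CG, and its region in ITGB2, which encodes the beta subunit of leukocyte integrins, had 0.0575 and 0.0738 in controls 1 and 3 and 0.431 and 0.345 with DNMT3A. The last 2 runs are short because most of both regions lay beyond the 250 bases. These 5 were chosen after their values were seen, to show smaller and larger gains beside start sites.

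Regions of this kind made up 28.1% of the gains in pair 1 (exact binomial 95% interval 25.6 to 30.7), 29.6% in pair 2 (27.0 to 32.3) and 26.3% in pair 3 (23.7 to 28.9). The mean over pairs was 28.0% ± 1.69 (SD, n = 3), and the intervals cover counting of regions only. The median control level was 0.0526, 0.0494 and 0.0501 in pairs 1, 2 and 3. The median overexpressing level was 0.275, 0.278 and 0.265, with interquartile ranges of 0.194 to 0.377, 0.191 to 0.386 and 0.186 to 0.344. The typical region of this kind thus remained mostly unmethylated after DNMT3A was added. Other gains had median overexpressing levels of 0.586, 0.599 and 0.597, from control medians of 0.259, 0.281 and 0.271.

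**Figure D1:**
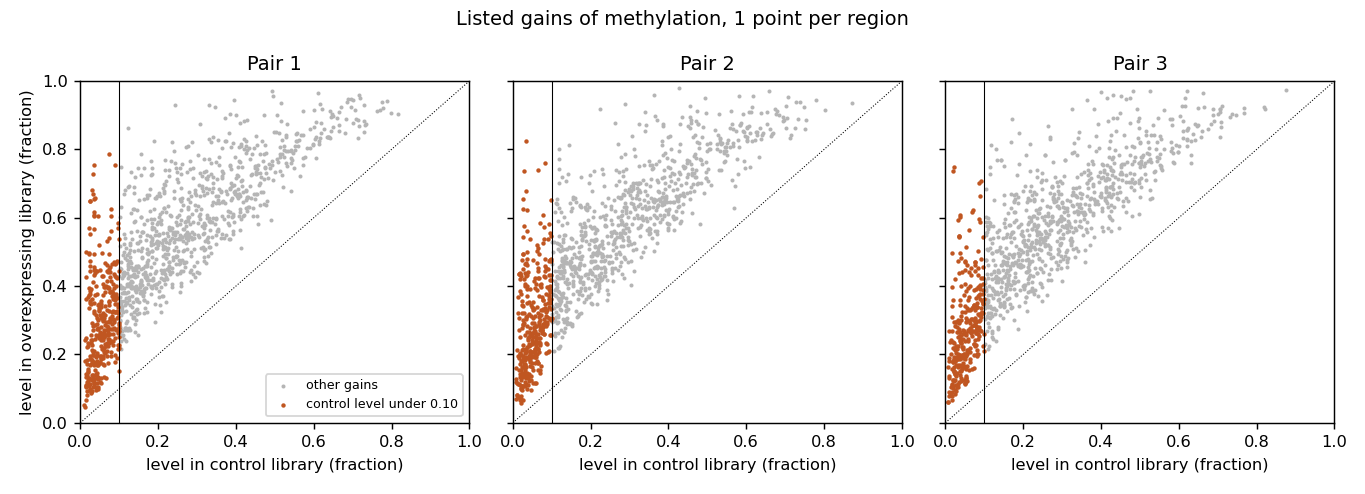
Every listed gain of each pair by its level in the control library (x axis, fraction) and in the overexpressing library (y axis, fraction), 1 point per region, with the diagonal of equal levels dotted and a line at 0.10. The regions under 0.10 (orange) spread from near the diagonal up to 0.786, 0.823 and 0.747 in pairs 1, 2 and 3, and most lie under 0.5.

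In the overexpressing libraries 96, 97 and 95 of these regions, or 28.1%, 28.0% and 31.3%, were still under 0.2. Only 26, 25 and 19, or 7.60%, 7.20% and 6.25%, reached 0.5 or more. The remaining 220, 225 and 190 lay between. Median differences of the 2 levels were 0.213, 0.209 and 0.206, against 0.277, 0.281 and 0.282 for other gains. The highest levels were 0.786 in pair 1 in ZDHHC14, a palmitoyltransferase gene, 0.823 in pair 2 at an intergenic region nearest RPUSD4, and 0.747 in pair 3 in RBMS1, an RNA-binding protein gene.

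The threshold of 0.10 cut through a continuous range. Just inside it were regions with control levels of 0.0997 on chromosome 6 in pair 1 (overexpressing level 0.537), 0.0999 in ASB2 in pair 2 (0.307) and 0.0993 on chromosome 11 in pair 3 (0.260). Just outside were MRAP in pair 1 (control 0.10017, overexpressing 0.344), LOC105371159 in pair 2 (0.100092 and 0.464) and LOC105373411 in pair 3 (0.101 and 0.336). A further 11 listed regions had a control level under 0.10 and a still lower overexpressing level, and are not gains.

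The deposited number of CpG sites of a region appears to count cytosines of both strands, which the lists do not state, and it is read that way here. Of 113 listed regions that lay wholly inside a RefSeq promoter window, it exceeded the number of CG dinucleotides in 109 and the number of cytosines of both strands in 0, and it equalled the latter in 71. Gains from under 0.10 had a median of 11, 11 and 12 such cytosines in pairs 1, 2 and 3, from 4 to 113, and median lengths of 101, 103 and 102 bp. The density was 10.8, 10.46 and 10.9 cytosines per 100 bp, against 10.7, 10.8 and 10.9 in other gains. The mean difference of -0.0853 per 100 bp was within the spread between pairs (SD 0.268, exact two-sided sign-flip test over 3 pairs, p = 0.75, smallest possible 0.25). The median length differed by -1.33 bp (SD 1.15, exact sign-flip p = 0.5). With the threshold at 0.15, the density of regions under it was lower by more, at -0.899 per 100 bp (SD 0.228) and in 3 of 3 pairs (exact sign-flip p = 0.25).

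Among these regions, however, the level reached followed CpG density. Regions with under 10 CpG cytosines per 100 bp had median overexpressing levels of 0.366, 0.376 and 0.334 (150, 159 and 128 regions in pairs 1, 2 and 3). Those with 10 to 20 had 0.233, 0.235 and 0.242 (156, 149 and 137 regions). The densest, with 20 or more, had 0.194, 0.167 and 0.157 (36, 39 and 39 regions). Their control medians were 0.0538, 0.0437 and 0.0539 in the sparse class and 0.0430, 0.0522 and 0.0403 in the dense class. The rule holds every control level under 0.10, so these medians had little room to differ.

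**Figure D2:**
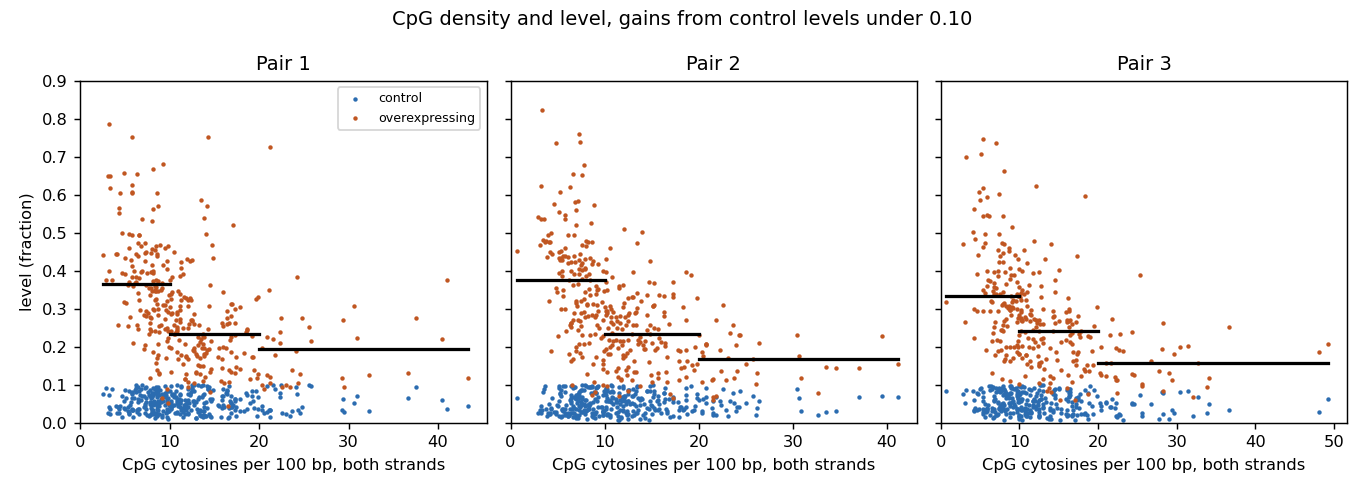
CpG cytosines of both strands per 100 bp (x axis) against the level of each gain from under 0.10 (y axis, fraction) in the control (blue) and overexpressing (orange) library of its pair, 1 panel per pair, with black bars at the median overexpressing level under 10, from 10 to 20 and from 20 per 100 bp. The orange points step down from medians of 0.366, 0.376 and 0.334 to 0.194, 0.167 and 0.157, while the blue points stay under 0.10 by the rule.

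Spearman's rho between density and overexpressing level was -0.573 over 342 regions in pair 1, -0.608 over 347 in pair 2 and -0.584 over 304 in pair 3. For the control level it was -0.0203, 0.0397 and -0.153, but the rule restricts that level to under 0.10, so the 2 sets of values cannot be compared. These are descriptions across regions that share a library and entered the list through 1 region caller, whose thresholds are not given. The part of the calling in this relation was not tested. With the number of cytosines held to 4 to 9, rho with the overexpressing level was -0.564, -0.598 and -0.457, and with 20 or more it was -0.416, -0.490 and -0.506. In other gains it was -0.126, -0.153 and -0.121, but the difference of levels followed density there too, at -0.588, -0.542 and -0.560. Read in a pair that had not chosen the regions, rho between density and overexpressing level was -0.386 to -0.497 over 123 to 142 regions for the 6 ordered combinations.

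Inside genes and over 1 kb from their ends lay 59.4%, 57.6% and 57.6% of the regions in pairs 1, 2 and 3, against 57.7%, 60.0% and 58.2% of other gains. Less than 1 kb from an end of some gene lay 19.9%, 23.1% and 26.0%, against 21.3%, 19.8% and 22.6%. Neither share differed beyond the spread between pairs (mean differences -0.434 and 1.76 percentage points, exact sign-flip p = 0.75 and 0.5). Measured from annotated start sites, with chromosome 8 left out, 61 of 326, 62 of 330 and 60 of 290 regions lay within 1 kb, or 18.7%, 18.8% and 20.7%. Other gains had 14.9%, 15.8% and 16.7%. The share was higher by 3.58 ± 0.517 percentage points (SD, n = 3) and in 3 of 3 pairs, with the exact sign-flip p = 0.25 that is the smallest 3 pairs allow. This measure was added after the data were seen.

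Regions near start sites reached lower levels than regions farther away. Their median overexpressing levels were 0.224, 0.198 and 0.224, against 0.289, 0.285 and 0.269 beyond 1 kb. Their control medians were 0.0434, 0.0441 and 0.0533, against 0.0536, 0.0505 and 0.0491. The start-site regions were also denser in CpG, with 13.9, 12.7 and 15.7 cytosines per 100 bp against 10.2, 10.2 and 10.3, so position and density cannot be told apart here.

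The regions were next followed into the lists of the pairs that had not chosen them. Of the regions of pair 1, 36.5% met a listed gain of pair 2 and 34.8% one of pair 3, where 33.4% and 32.5% of all gains of pair 1 did. Of the regions of pair 2, 40.1% met a gain of pair 1 and 36.0% one of pair 3 (all gains of pair 2: 35.2% and 31.3%). Of the regions of pair 3, 42.1% met a gain of pair 1 and 40.1% one of pair 2 (all gains of pair 3: 34.9% and 32.6%). The share exceeded that of other gains by 6.85 ± 3.09 percentage points (SD, n = 3) and in 3 of 3 pairs (exact two-sided sign-flip p = 0.25, the smallest possible). With the threshold at 0.05 the difference was -1.57 points (exact p = 0.5), so its sign depends on the threshold.

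Where a region was listed again, the levels were close to those of the pair that chose it. Median control levels of 0.0540 to 0.0594 over the 6 ordered combinations became 0.0578 to 0.0672 in the other pair. Median overexpressing levels of 0.270 to 0.290 became 0.276 to 0.297. The control level was again under 0.10 in 74.6% to 82.1% of these 123 to 142 regions. Listing in the second pair required a call there, so these values hold for regions called in both pairs.

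**Figure D3:**
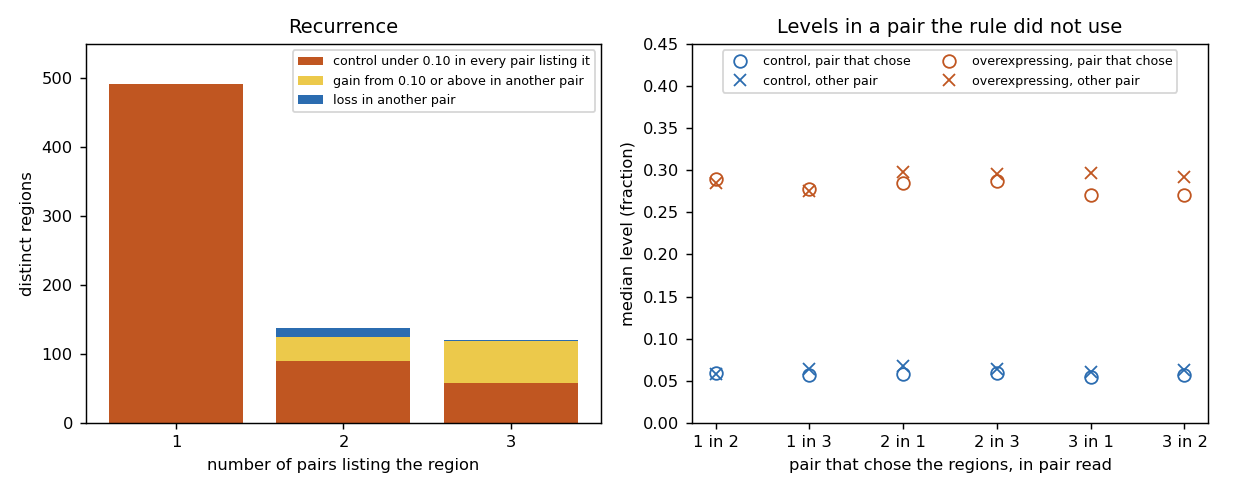
Left, distinct regions with at least 1 gain from under 0.10 by the number of pairs that listed them (stacked bars: control under 0.10 in every listing pair, a gain from a higher level in another pair, or a loss in another pair). Right, median levels (y axis, fraction) of regions chosen in 1 pair and listed in another, in the choosing pair (circles) and the other pair (crosses), where control medians stay at 0.0540 to 0.0672 and overexpressing medians at 0.270 to 0.297.

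After overlapping rows of different lists were merged, 750 distinct regions held at least 1 such gain, and 258 of them were listed in 2 or 3 pairs. In 639 the control level was under 0.10 in every listing pair: 492 were listed in 1 pair, 89 in 2 and 58 in 3. Another 97 were gains from under 0.10 in one pair and from a higher control level in another. The highest control level of these had a median of 0.130, and it stayed under 0.15 in 26 of the 36 listed in 2 pairs and in 42 of the 61 listed in 3. The last 14 were losses in another pair. Regions listed in 1, 2 and 3 pairs with control under 0.10 throughout held a median of 9, 14 and 18 CpG cytosines over 85, 133 and 181 bp. A merged region takes the joined length and the largest site number of its rows, so both grow with the number of pairs. Each pair keeps the levels of its own rows, so levels of different pairs may cover stretches that overlap only in part. Gains from 0.10 or above in all 3 pairs had a median of 18 cytosines over 186 bp. The regions with control under 0.10 lay in gene bodies in 48.4%, 64.0% and 75.9%, and near gene ends in 25.8%, 21.3% and 15.5%. These shares were not computed for other gains by number of pairs, so the trend cannot be called particular to these regions.

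The 58 regions with control under 0.10 in all 3 pairs allowed the groups to be compared over all 6 libraries. Their median control level was 0.0514, 0.0478 and 0.0488 in controls 1, 2 and 3, and their median overexpressing level 0.275, 0.280 and 0.259. The median SD between 3 libraries at a region was 0.00763 in controls and 0.0270 with DNMT3A. The mean difference had a median of 0.219 and ran from 0.0692 at PAQR9 to 0.434. The ratio of the mean levels had a median of 5.39, from 2.12 to 11.9, against a median of 2.89 over all regions listed in 3 pairs. The rule sets the low control levels that enter this ratio. Every overexpressing library was above every control library at 58 of 58 regions, and the same held at 95.6% of the 272 regions listed in all 3 pairs. In a limma fit to the logit of the levels over those 272 regions, all 58 were called at a Benjamini-Hochberg adjusted p under 0.05, as were 96.0% of the 272. The median effect was 1.79 on the logit scale for the 58 and 1.48 over all 272. As a plain difference of levels the order was reversed, with medians of 0.219 for the 58 and 0.277 over all 272. Which set gained more thus depends on the scale. The regions had been called and selected on these same levels, so both counts are fixed by the selection and nothing is read from them.

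Of the 10 largest mean differences among the 58, 9 are described here, in or near TXNRD2, ZHX2, RIPK4, USP7, NEDD4L, EPHA2, BCOR, NFIX and KCNQ1. Positions are on hg38, and the values are a description. TXNRD2 encodes the mitochondrial thioredoxin reductase. Its region (chr22:19937612-19937736, 10 cytosines), which also lies in LOC124905081, had 0.0796, 0.0971 and 0.0762 in controls and 0.416, 0.478 and 0.470 with DNMT3A. The difference was 0.371 ± 0.0305 (SD, n = 3 pairs).

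ZHX2 encodes a zinc finger and homeobox repressor known for silencing alpha-fetoprotein in the adult liver. Its region (chr8:122887728-122887889, 14 cytosines) had 0.0586, 0.0947 and 0.0770 in controls and 0.373, 0.477 and 0.461 with DNMT3A. Pair 1 was lowest in both groups, and the difference was 0.360 ± 0.0395. RIPK4 encodes a kinase of epidermal differentiation. Its region was long (chr21:41761337-41762208, 56 cytosines), with 0.0659, 0.0644 and 0.0652 in controls and 0.399, 0.424 and 0.396 with DNMT3A. The controls there differed by an SD of 0.00076. The intergenic region nearest USP7, a deubiquitinase gene that begins 25502 bp away, lay at chr16:8989408-8989612 (14 cytosines). It had 0.0604, 0.0665 and 0.0597 in controls and 0.396, 0.423 and 0.369 with DNMT3A.

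NEDD4L encodes a ubiquitin ligase that removes epithelial sodium channels from the membrane. Its region (chr18:58315824-58316032, 18 cytosines) had 0.0463, 0.0961 and 0.0655 in controls and 0.301, 0.418 and 0.452 with DNMT3A. These were spread more widely than at RIPK4, with a difference of 0.321 ± 0.0662, and the groups still did not overlap. EPHA2 is a receptor tyrosine kinase for ephrins. Its region (chr1:16146527-16146662, 14 cytosines) had 0.0768, 0.0894 and 0.0633 in controls and 0.383, 0.351 and 0.399 with DNMT3A. BCOR, a corepressor found in a Polycomb complex, had 0.0574, 0.0614 and 0.0601 in controls and 0.301, 0.339 and 0.440 with DNMT3A (chrX:40169919-40170022, 18 cytosines). The controls of BCOR were nearly equal, while its overexpressing libraries differed by an SD of 0.0718.

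NFIX belongs to the nuclear factor I family of transcription factors. Its region (chr19:13051879-13051997, 19 cytosines) had 0.0456, 0.0530 and 0.0730 in controls and 0.345, 0.331 and 0.390 with DNMT3A. KCNQ1 encodes a potassium channel of cardiac repolarisation and lies in an imprinted domain. Its region (chr11:2728439-2728652, 12 cytosines) had 0.0640, 0.0568 and 0.0491 in controls and 0.316, 0.395 and 0.343 with DNMT3A. At these 9 regions the controls reached at most 0.0971, and the lowest overexpressing level was 0.301. Of the 9, 7 lay in gene bodies, 1 near a gene end and 1 between genes.

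**Figure D4:**
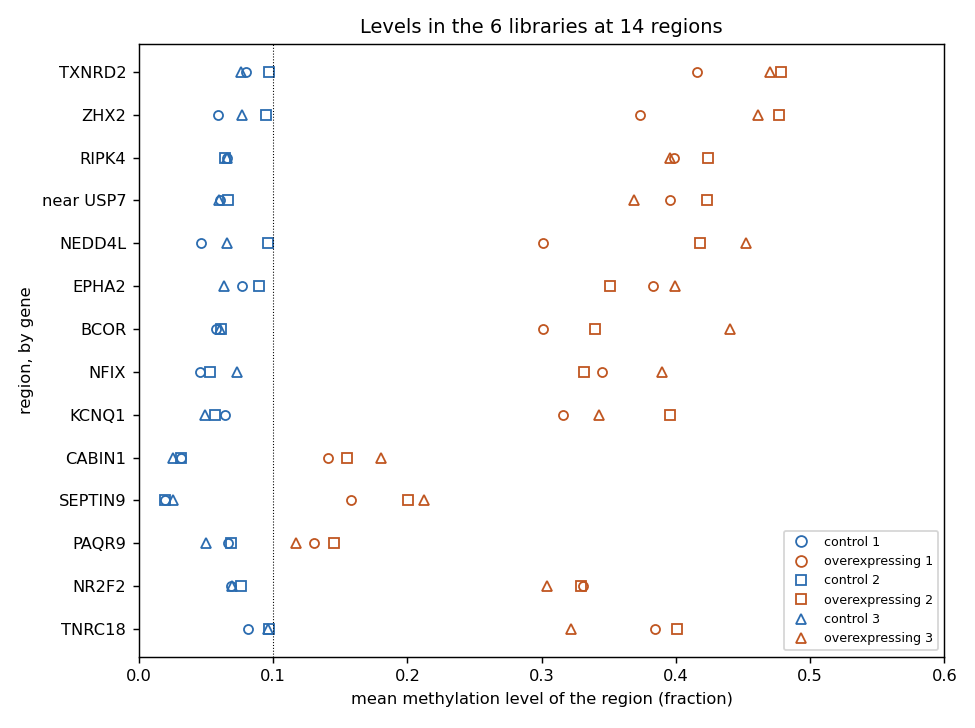
Mean methylation level (x axis, fraction) in each of the 6 libraries at 9 of the 10 regions with the largest mean difference and the 5 with the most CpG cytosines (y axis, by gene) among the 58 regions with control under 0.10 in all 3 pairs; blue marks controls, orange overexpressing libraries, and the mark shape gives the pair. Every orange mark lies to the right of every blue mark of its row, and CABIN1, SEPTIN9 and PAQR9 stay at or under 0.213.

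The 5 regions with the most CpG cytosines reached lower levels in 3 cases and similar levels in 2. CABIN1, which encodes an inhibitor of calcineurin, held 113 cytosines (chr22:24156127-24156853). It had 0.0314, 0.0315 and 0.0255 in controls and 0.141, 0.155 and 0.180 with DNMT3A. SEPTIN9 encodes a cytoskeletal GTP-binding protein, and its methylation is used as a blood marker of colorectal cancer. Its region (chr17:77373714-77374581, 92 cytosines) began 377 bp past an annotated SEPTIN9 start site, and had 0.0193, 0.0196 and 0.0252 in controls and 0.158, 0.2001 and 0.213 with DNMT3A. PAQR9, shown above, held 86 cytosines (chr3:142963546-142963780), and its difference of 0.0692 ± 0.00627 was the smallest of the 58. NR2F2 encodes an orphan nuclear receptor. Its region (chr15:96334071-96334453, 76 cytosines) began 306 bp past a start site and had 0.0689, 0.0762 and 0.0693 in controls and 0.331, 0.329 and 0.304 with DNMT3A. In TNRC18 (chr7:5418463-5419431, 62 cytosines) the levels were 0.0813, 0.0965 and 0.0961 in controls and 0.384, 0.401 and 0.322 with DNMT3A. NR2F2 and TNRC18 thus reached levels above 0.3 in every overexpressing library, while CABIN1, SEPTIN9 and PAQR9 did not.

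Of the 52 such regions outside chromosome 8, 8 lay within 1 kb of an annotated start site. Their mean differences had a median of 0.132 (0.0692 to 0.2498), against 0.232 (0.0719 to 0.434) at the 44 farther away. Besides PAQR9, C2CD4D, RAI1, SEPTIN9 and NR2F2 they were at MAP4K4, CACNA1H and PRDM16. At RAI1 and PRDM16 the start site was that of LOC124903942 and LOC105378604, not of the named gene. The region in CACNA1H lay close to the start site of LOC124903622. MAP4K4, a stress kinase gene, had 0.0221, 0.0318 and 0.0376 in controls and 0.130, 0.141 and 0.186 with DNMT3A in a region ending 670 bp before its start. In CACNA1H, a T-type calcium channel gene, the levels were 0.0507, 0.0272 and 0.0460 in controls and 0.176, 0.196 and 0.176 with DNMT3A. Over the 58, Spearman's rho between CpG density and mean level was -0.487 with DNMT3A and -0.310 in controls, as a description.

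Among regions listed in exactly 2 pairs with control under 0.10, the largest gain was in the intergenic region nearest RPUSD4 (chr11:126185604-126185722). It had 0.0243 and 0.0348 in controls 1 and 2 and 0.650 and 0.823 with DNMT3A, over only 4 CpG cytosines. The next was near DEFA6, a Paneth cell defensin gene, with 0.0863 and 0.0505 in controls 1 and 2 and 0.469 and 0.476 with DNMT3A. LRRK1, a kinase gene, had 0.0395 and 0.0159 in controls 2 and 3 and 0.440 and 0.396 with DNMT3A. LOC105371024 had 0.0757 in both controls 1 and 3 and 0.442 and 0.471 with DNMT3A. SMG6, the endonuclease gene of nonsense-mediated decay, had 0.0604 and 0.0503 in controls 2 and 3 and 0.406 and 0.447 with DNMT3A. ZNF469 had 0.0307 and 0.0567 in controls 1 and 3 and 0.363 and 0.462 with DNMT3A. No level was listed for the remaining pair at these regions.

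The largest gains listed in a single pair that are described here had 4 to 10 CpG cytosines. In pair 1 they were in MYRIP (0.0351 to 0.753) and ZDHHC14 (0.0732 to 0.786), with 4 cytosines each. In pair 2 they were near TPM1 (0.0290 to 0.736) and in BRINP3 (0.0817 to 0.760), with 5 each. In pair 3 the largest was in RBMS1 (0.0220 to 0.747), with 10. These have no second pair to set beside them.

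The 14 regions that were a gain from under 0.10 in one pair and a loss in another had levels that moved apart in opposite directions. A region of 4 cytosines in GSE1 (chr16:85547386-85547448) went from 0.0349 to 0.655 in pair 1 and from 0.665 to 0.0351 in pair 2, nearly a mirror image. CA8 had 0.0933 and 0.582 in the control and overexpressing library of pair 2, and 0.817 and 0.377 in pair 1. A region near MCOLN2 had 0.0747 and 0.540 in pair 1, and 0.393 and 0.0503 in pair 2. At these 3 regions and the 3 named next, the controls of the gaining and the losing pair differed by more than 0.3. A control under 0.10 beside a large loss in another pair makes such a gap likely. ERVMER34-1 had 0.0979 and 0.310 in pair 1 and 0.445 and 0.163 in pair 2. NFIB, with 58 cytosines beginning 246 bp past a start site, had 0.0469 and 0.521 in pair 1 and 0.467 and 0.189 in pair 3. The region of HOXA3 and HOXA5 was the single one of this kind listed in all 3 pairs, with 0.570, 0.0650 and 0.269 in controls and 0.304, 0.453 and 0.673 with DNMT3A. Its groups overlapped. In all 14 the direction differed between pairs.

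Gene lists drawn up with earlier results known describe where the regions fell. Of 1836 genes with a listed gain inside or within 1 kb, 607 had a gain from under 0.10, or 33.1%, and 245 had one in a region listed in 2 or 3 pairs. Genes methylated in cancers stood at 9 of 12 (75%), and 4 of them, DAPK1, RASSF3, SEPTIN9 and SPOCK2, had one in a region listed in 2 or 3 pairs. DAPK1, a kinase of programmed cell death, had 0.0288 and 0.0495 in controls 1 and 2 and 0.227 and 0.257 with DNMT3A, 451 bp past a start site. RASSF3, of the RAS-association family, had 0.0684, 0.0853 and 0.0519 in controls and 0.444, 0.325 and 0.308 with DNMT3A. Matrix and adhesion genes stood at 16 of 29 (55.2%). HSPG2, the perlecan gene, had 0.0587 and 0.0831 in controls 1 and 2 and 0.322 and 0.445 with DNMT3A. Zinc finger genes with ZNF symbols stood at 7 of 13 (53.8%).

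Developmental transcription factors stood at 17 of 44 (38.6%), and 12 of these were in a region listed in 2 or 3 pairs. SOX13 had 0.0697, 0.0576 and 0.0425 in controls and 0.414, 0.311 and 0.324 with DNMT3A. NFIC had 0.0746, 0.0921 and 0.0922 in controls and 0.356, 0.340 and 0.319 with DNMT3A. GATA2, a factor of blood stem cells, held 3 regions, all listed in 2 or 3 pairs. A CpG-rich one had 0.0310 and 0.0646 in controls 1 and 2 and 0.140 and 0.175 with DNMT3A. Another (chr3:128490303-128490688), not under 0.10 in every control, was listed in all 3 pairs with an effect of 1.61 on the logit scale. Signalling genes stood at 12 of 32 (37.5%). Among them FZD4, a WNT receptor gene, had 0.0631 and 0.0475 in controls 2 and 3 and 0.219 and 0.201 with DNMT3A. SMO, the hedgehog signal transducer, had 0.0277 and 0.0287 in controls 1 and 3 and 0.0891 and 0.106 with DNMT3A.

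Chromatin genes stood at 6 of 17 (35.3%), among them ZBTB4, which encodes a reader of methylated DNA, with 0.0470 and 0.0830 in controls 2 and 3 and 0.312 and 0.398 with DNMT3A. Genes of the hepatocyte and lipid list stood at 3 of 17 (17.6%), with 1 in a recurrent region, SLCO4A1. The SLCO4A1 regions listed in all 3 pairs were not under 0.10 in every control. ABCA4 was listed in pair 2 only, at 0.0359 and 0.622. Neither gene was among the 6 hepatocyte markers looked up, none of which had a listed region. Ion channel and neuronal genes stood at 8 of 49 (16.3%), and imprinted locus genes at 1 of 7 (14.3%), which was KCNQ1. The lists are short, some genes stand in 2 of them, and no test was made of these shares. Values from DAPK1, HSPG2, SOX13, NFIC, GATA2, FZD4 and SMO were chosen after they were seen.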

How the data were processed

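Reduced representation bisulfite sequencing of 6 HepG2 libraries was analysed from a mapping summary and 3 lists of regions that differ in methylation. Per the file headers, the authors gave the mean methylation level of each region in both libraries of a pair as a fraction. As counts, the authors deposited CpG sites for every region, and total and mapped reads for every library. The authors' mapping rate and MspI cutting efficiency (99.61 to 99.66) are in percent. The authors' area statistic is a score and was not used further. Coordinates are on hg38, according to the submitters' processing notes. For aligner, caller, thresholds and coverage filter, no value is given in the sources used here. The coverage of a region is unknown, so no interval for a level can be given.

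Rows were merged where they overlapped by at least 1 bp, with levels weighted by CpG sites where 1 pair had several rows. The site number of a merged region is the largest of its rows. Positions were taken against RefSeq GRCh38.p14 (20056 protein-coding and 18330 long noncoding RNA genes) and 34943 promoter windows of 300 bases. Neither table gives exons or introns here. The promoter table holds no entry for chromosome 8, which was left out of start-site counts, as were unplaced contigs. Levels at the 272 regions listed in all pairs were fitted in limma 3.58.1 (R 4.3.3) after a logit transform (0.01 added) with no replicate block. P-values were adjusted over all 272, and the step was tested on simulated levels. Values over pairs used exact sign-flip tests (Python 3.11.15, scipy 1.17.1, pandas 2.3.3, numpy 2.4.6).

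Named regions were the 10 largest mean differences and the 5 with the most CpG sites among regions listed in all 3 pairs, the 6 largest in 2 pairs, the 2 largest of each single pair, up to 6 that were losses elsewhere, the neighbours of the threshold and the largest member of gene lists. Members, lists and rules were chosen with earlier results of these data known. Deviations from group means correlated at 0.287, 0.235 and 0.172 between libraries of the same number across the 272 regions. Both levels of a pair come from the same listed rows, so these values cannot show whether the libraries were paired. The authors' lists set equal numbers against each other, so numbers were taken to pair libraries. Some items that this rule names are not reported here. Alternatives were other thresholds, site minimums, overlaps, windows and offsets, and leaving out each pair.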

Additional observations from a re-analysis of the deposited data

How the results depend on the processing

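All 58 regions with control under 0.10 in all 3 pairs were called in limma under each alternative run, which their selection on the same levels fixes (58 with offsets of 0.001 and 0.05, on untransformed fractions, with unweighted means and without each pair; 59 with a stricter overlap rule). With the replicate block, which uses the pairing, 58 were called (largest adjusted p 0.00622), and it changed no call among them. Of 153 refits of 17 named regions, 152 gave the same call. All of the 17 but the region of HOXA3 and HOXA5 belong to the 58, so their calls were fixed in the same way and nothing is read from that count. The region of HOXA3 and HOXA5 passed without pair 1 (limma adjusted p = 0.0169, against 0.206 with all pairs).

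The number of regions was 490 with the threshold at 0.05, 379 with a difference of at least 0.25 and 646 to 689 without 1 pair. The share of gains was 13.8% at 0.05, 41.1% at 0.15 and 19.01% with a difference of at least 0.25. The median overexpressing level was 0.211 at 0.05, 0.320 at 0.15, 0.253 with at least 8 sites and 0.405 with a difference of at least 0.25. Distinct regions listed in 2 or 3 pairs numbered 121 at 0.05 and 148 to 165 without 1 pair. Other thresholds, a minimum difference and fewer pairs change these by construction, and the cause of the lower level with at least 8 sites was not tested.

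Several differences from other gains changed sign or size. Density was higher by 0.187 per 100 bp with at least 8 sites, was -0.899 at 0.15 (lower in 3 of 3 pairs) and ran from -0.199 to 0.0625 without 1 pair. Length was higher by 2.67 bp at 0.15 and by 3.50 bp with at least 8 sites. The gene-end share was -0.0323 points with protein-coding genes only, 0.623 at 0.15, 2.28 at 0.05, 2.26 within 0.5 kb and 3.25 within 2 kb (higher in 3 of 3 pairs in the last 3), and 0.950 to 3.33 without 1 pair. The gene-body share was 0.231 at 0.15, 1.18 with at least 8 sites, 3.30 with protein-coding genes only and -1.47 to 0.506 without 1 pair. The recurrence share was -1.57 points at 0.05. The cause was not tested. Without coverage, a thinly read region cannot be told from a well read one, and levels of regions listed in 1 pair have no second measurement.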

Other observations

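Some genes held several of these regions, and they were picked out after the counts were seen. Of 528 genes with a distinct region inside, 67 held at least 2 and 17 at least 3. BCOR and GSE1 held 7 each, CACNA1H and SLC7A5 6 each, and GNG7 and NOL4L 4 each. Other gains in these genes and gene length were not set beside these counts, so they cannot be called particular to these regions. In GSE1 3 of the 7 were listed in 2 or 3 pairs, and 0 of those had control under 0.10 in every listing pair. In BCOR 3 of the 7 were listed in 2 or 3 pairs. One of them (chrX:40145297-40145422) had 0.0418 and 0.0227 in controls 1 and 2 and 0.306 and 0.180 with DNMT3A. A longer one (chrX:40151451-40152133, 91 CpG cytosines) had 0.135, 0.0637 and 0.0898 in controls and 0.311, 0.176 and 0.300 with DNMT3A, so 1 control was above 0.10. In SLC7A5, which encodes an amino acid transporter, none of the 6 inside the gene was listed in a second pair. Of its regions near the start, that at chr16:87869018-87869169 had 0.0338 and 0.104 in pair 1, and that at chr16:87868869-87868929 had 0.0386 and 0.131 in pair 2. In COL18A1, the gene of a basement membrane collagen, all 3 regions stayed low, with overexpressing levels of 0.128 to 0.172. EPHA2 held 3 regions listed in all 3 pairs, of which 2 had a control level above 0.10 in at least 1 pair.

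Promoter windows give a further description of the DNA. For each of 34 regions with control under 0.10 throughout that met a RefSeq window, the window with the largest overlap had a median of 24 CG dinucleotides, 70.8% G and C and an observed to expected CG ratio of 0.716. The same over 96 regions that were gains from 0.10 or above only gave 26, 68.3% and 0.777, and all 34943 windows gave 14, 58.7% and 0.577. The motif CCGG, at which the assay cuts, was in every window of both sets, against 63.1% of all. The parts of the cutting and of the higher G and C content in this were not tested. GGGCGG, searched on both strands, was in 27 of 34 (79.4%) and 71 of 96 (74.0%), against 44.9% of all windows. CACGTG was in 3 (8.82%) and 13 (13.5%), TATAAA in 1 (2.94%) and 7 (7.29%), and the palindromic NRF1 motif in 0 and 1. Over all windows these 3 motifs were in 7.23%, 11.6% and 1.23%. By chromosome, 639 of 2556 merged gain regions (25%) had control under 0.10 throughout. The share was 27.1% on chromosome 1, 25.9% on chromosome 16, 36.4% on chromosome 11 (47 of 129) and 15.9% on chromosome 2 (29 of 182). None of the 10 such regions of chromosome 13 was listed in a second pair.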
